A study of Mus musculus with 20 samples.

Results

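The Polycomb and H3K9 methylation enzymes examined here were 10 genes whose products write, hold in place or remove repressive methyl groups on histone H3. They were taken by gene symbol (Ezh2, Ezh1, Suz12, Eed, Kdm6b, Bmi1, Ehmt1, Ehmt2, Setdb1 and Suv39h2) from a table of 17101 genes, and all 10 were found there with reads in every library. RNA-Seq was performed on donor T cells sorted from the spleens of mice on day +10 after haploidentical allogeneic bone marrow transplantation, a model of graft-versus-host disease in which B6 donor cells are given to irradiated F1 recipients. Donors were 6 to 12 weeks of age and recipients 8 to 12 weeks. In the KO groups the donor T cells carried loxP-flanked Dnmt3a (2loxP) and Cre under the Cd4 promoter, which removes the gene in the T cell lineage and leaves it in the recipient's own cells. In the WT groups they came from littermates. The groups were KO CD4, KO CD8 and KO DP (CD4+CD8+ double-positive) cells from KO animals 1 to 4, and WT CD4 and WT CD8 cells from WT animals 2, 3, 5 and 6, with 4 libraries each and 20 in all. The labels give a replicate number, which is read here as the animal. WT DP cells were not analysed here. Every group had been through the same transplantation.

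DNMT3A, the enzyme lost in the KO cells, methylates CpG sites in DNA, and the enzymes described here act on histones at many of the same silent genes. Polycomb repressive complex 2 (PRC2) methylates lysine 27 of histone H3: EZH2 or its relative EZH1 is the catalytic subunit, SUZ12 is the scaffold, and EED binds the finished mark and stimulates the enzyme. PRC1, which holds BMI1 in some of its forms, ubiquitinates histone H2A, and KDM6B (JMJD3) removes methyl groups from H3K27. On lysine 9 of H3, EHMT1 (GLP) and EHMT2 (G9a) act as a pair to place mono- and dimethylation, whereas SETDB1 and SUV39H2 place trimethylation, the mark of retroelements and constitutive heterochromatin. In T cells EZH2 is known to restrain effector cytokine genes and to be made in dividing cells, EZH1 is known from resting cells, and SETDB1 and the SUV39H enzymes are known for keeping the gene programs of other lineages off.

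Values are normalized counts, the reads of a gene in a library after division by that library's size factor. Between 37547651 and 46966318 reads fell on genes per library, and between 13203 and 14677 genes had reads, except in the DP library of KO animal 3 with 11783. Every KO library had fewer such genes than every WT library, with 13378 to 13910 in KO CD4 and 13576 to 14077 in KO CD8. KO DP libraries had up to 14198, WT CD4 libraries 14421 to 14525 and WT CD8 libraries 14465 to 14677. The part of this difference in the results below was not tested. The targeted gene followed the labels. Dnmt3a lay at 1385 to 1658 in KO CD4 against 4690.0 to 5171 in WT CD4, at 1287 to 2007 in KO CD8 against 3542 to 3812 in WT CD8, and at 650.4 to 1571 in KO DP. The T cell gene Cd3e lay between 16885 and 29178 in every library, lower in KO than in WT without overlap in both subsets. It was at 16885 to 23273 in KO CD4 and 23516 to 26325 in WT CD4. KO CD8 libraries had 18334 to 23917 and WT CD8 libraries 27380 to 29178. Of 12 T cell genes, Cd3e included, 8 had estimates above 0 in each subset. Of these 12, 0 were called in CD4 cells, and 3 were called higher and 1 lower in KO CD8 cells. Among them, Cd8b1 lay at 550 to 4515 in KO CD4 and 285 to 549 in WT CD4. Cd8a lay at 78.3 to 3771 in KO CD4 and 99.1 to 586 in WT CD4, with overlap. Cd4 was at 302 to 458 in KO CD8 and 9.88 to 79.6 in WT CD8. The summed count of 8 B cell genes was 659 to 1126 in KO CD4, where WT CD4 had 85.8 to 117, and 1465 to 2289 in KO CD8, where WT CD8 had 197 to 284. Nearly all of it in KO cells was Cd79b, with Ms4a1 at 0 to 4.39 over the 20 libraries. Cd79a was at 48.8 to 90.1 in KO CD4 and 1.94 to 13.4 in WT CD4. In CD8 cells Cd79a was at 12.3 to 35.0 in KO and 9.88 to 21.1 in WT. Of the 3 B cell genes tested, 2 were called higher and 1 lower in KO CD4, and 1 higher in KO CD8 cells. The NK cell list stood at 3871 to 37227 in KO CD4 and 1939 to 2801 in WT CD4 libraries, and at 36182 to 232855 in KO CD8 and 15947 to 24413 in WT CD8. Most of the sum in KO cells was Gzma, which cytotoxic T cells also make (34225 to 229921 in KO CD8 libraries), whereas Eomes of the same list was at 1280 to 2193 in KO CD8 and 3519 to 4824 in WT CD8. Klrb1c, also of this list, was higher in KO libraries without overlap. It lay at 220 to 1547 in KO CD4 and 111 to 177 in WT CD4. In CD8 cells it lay at 672 to 3066 in KO and 70.1 to 312 in WT. The defining marker Ncr1 reached at most 12.9. Myeloid sums overlapped between KO and WT in both subsets, and the 2 erythroid genes were at 16.7 to 1053 in KO CD4 and 592 to 3132 in WT CD4. The part of these cells, or of T cells of another subset, in the results below was not tested. A change in RNA per cell cannot be told apart from a change in the mix of cells within a sort.

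Per kilobase of exon, the scale on which genes can be compared with each other, Ehmt2 had the highest level of the 10 (median 2948 normalized counts per kb over the 20 libraries). The PRC2 genes Ezh2, Suz12 and Eed followed at 2245, 2178 and 1817. Ezh1, Setdb1 and Ehmt1 formed a middle group at 610.1, 587 and 489.9, ahead of Bmi1 at 321 and Kdm6b at 185. Suv39h2 was the lowest at 87.4. The range of Ezh2 over the 20 libraries, 1171 to 2736 per kb, took in the whole range of Eed (1288 to 2221) and of Suz12 (1574 to 2608), so the order among these 3 was not fixed from library to library. Ehmt2 was the steadiest of the members within the KO CD4 and KO CD8 groups, with an SD of 0.05 on the log2 scale in each.

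Ezh2, the main catalytic subunit of PRC2 in activated T cells, was measured at 3739, 7513, 6295 and 5065 normalized counts in CD4 libraries of KO animals 1, 2, 3 and 4, and at 6694, 7273, 7197 and 6458 in those of WT animals 2, 3, 5 and 6. In CD8 cells it was at 3767, 8097, 8390 and 6547 in KO animals 1 to 4 and at 7909, 8732, 8535 and 8510.1 in WT animals 2, 3, 5 and 6. DP cells of KO animals 1 to 4 had 4272, 8374, 6547 and 7137. KO animal 1 was the lowest of its group in all 3 subsets, and KO and WT values overlapped in both subsets. Of the other KO animals, in CD4 cells animals 3 and 4 lay below the WT range and animal 2 above it, and in CD8 cells animal 4 lay below it and animals 2 and 3 within it. The order of the group means was WT CD8 (8421 ± 356, SD, n = 4), WT CD4 (6905 ± 394), KO CD8 (6700.1 ± 2116), KO DP (6582 ± 1718) and KO CD4 (5653 ± 1621). Among neighbours in that order only the WT subsets did not overlap.

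Ezh1, the alternative catalytic subunit, had means of 2758 ± 523 in KO CD4, 2667 ± 167 in WT CD4, 2605 ± 326 in KO CD8, 2230.2 ± 83.9 in WT CD8 and 2123 ± 621 in KO DP (SD, n = 4 each). The lowest library was the DP library of KO animal 3 at 1332. Per kilobase, Ezh2 stood 2.85 ± 1.33 times as high as Ezh1 in KO CD4, 3.43 ± 0.309 in WT CD4, 3.52 ± 1.43 in KO CD8, 4.99 ± 0.371 in WT CD8 and 4.50 ± 1.99 in KO DP. The balance was thus on the side of Ezh2 in every group. It was further toward Ezh2 in WT CD8 than in WT CD4 cells without overlap (2-sided exact permutation p = 0.0286, the smallest that 4 against 4 libraries can give), while KO and WT CD8 cells differed by 0.61 on the log2 scale at p = 0.0571 in the same exact test.

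The scaffold gene Suz12, which varied less than Ezh2 in the KO groups, was at 8736 ± 1170 in KO CD4, 9153 ± 565 in WT CD4, 9889 ± 2091 in KO CD8, 10342 ± 397 in WT CD8 and 8891 ± 1686 in KO DP. Its lowest library was again from KO animal 1 in each KO subset. Eed, which reads the H3K27 mark, was at 2763, 3662, 3798 and 2653 in KO CD4 and at 3812, 4246, 4575 and 4088 in WT CD4, in the order of animals given above. KO CD8 libraries had 2743, 3621, 3706 and 2771, WT CD8 libraries 3655, 3781, 3850 and 3998, and KO DP libraries 2727, 4004, 3926 and 2920. All 4 KO CD4 libraries lay below all 4 WT CD4 libraries, and the CD8 groups overlapped in a narrow band. In all 3 KO subsets animals 1 and 4 made up the lower pair and animals 2 and 3 the upper pair. The means were ordered WT CD4 (4180.2 ± 319), WT CD8 (3821 ± 143), KO DP (3394 ± 664), KO CD4 (3219 ± 594) and KO CD8 (3210.4 ± 525), and neighbours in this order overlapped.

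The 250 bases upstream of Eed, Setdb1 and Suv39h2 are shown as RefSeq gives them for GRCm38.p6, the assembly of mm10, because these are the 3 members whose KO and WT ranges were separate in at least 1 subset, and because CpG sites, in capitals, are what the missing enzyme modifies. Each sequence runs 5' to 3' on the strand of its gene and ends at the base before the annotated start. DNA methylation was not measured in the table used here. Eed (chr7:89980977-89981226, minus strand) holds 12 CpG sites.
Eed: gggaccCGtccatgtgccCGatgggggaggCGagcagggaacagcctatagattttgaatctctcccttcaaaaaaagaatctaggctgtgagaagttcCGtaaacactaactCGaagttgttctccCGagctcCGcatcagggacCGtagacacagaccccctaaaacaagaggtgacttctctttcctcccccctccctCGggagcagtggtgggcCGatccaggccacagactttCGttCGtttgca
Setdb1 (chr3:95357203-95357452, minus strand) holds 13 and Suv39h2 (chr2:3474987-3475236, minus strand) holds 27.
Setdb1: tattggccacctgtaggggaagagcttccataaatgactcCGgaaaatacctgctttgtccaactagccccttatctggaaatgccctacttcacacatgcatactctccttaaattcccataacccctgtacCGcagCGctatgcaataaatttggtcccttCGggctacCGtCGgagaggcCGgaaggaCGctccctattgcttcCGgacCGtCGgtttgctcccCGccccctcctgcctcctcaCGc
Suv39h2: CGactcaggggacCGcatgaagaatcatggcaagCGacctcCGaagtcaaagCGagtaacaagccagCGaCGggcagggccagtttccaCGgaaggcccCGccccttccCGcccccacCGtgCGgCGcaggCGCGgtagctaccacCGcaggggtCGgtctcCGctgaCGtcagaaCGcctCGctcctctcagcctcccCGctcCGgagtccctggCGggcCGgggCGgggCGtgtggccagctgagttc
The median over 32851 such windows was 6 CpG sites. At least as many sites as in Suv39h2 occurred in 8.56% of windows, as many as in Setdb1 in 31.5% and as many as in Eed in 33.5%, so Suv39h2 has the densest of the 3. Motifs were searched on both strands. The ETS core CCGGAAG begins 68 bases before the start of Setdb1, with another match in reverse 47 bases before it, and occurs in 6.91% of windows. The CRE palindrome TGACGTCA lies 85 bases before the start of Suv39h2 and occurs in 1.55% of windows. Eed holds 2 matches of the CHR element TTTGAA, found in 16% of windows. No match of the AP-1 site TGACTCA (4.46% of windows) lies in the windows of the 9 members that have one in the table, which are all but Kdm6b.

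Bmi1, a PRC1 subunit, had means of 2575 ± 345 in KO CD4, 2382 ± 70.5 in WT CD4, 2151 ± 198 in KO CD8, 2240.2 ± 65.9 in WT CD8 and 2138 ± 225 in KO DP. Kdm6b, which removes the H3K27 mark, was the member that differed most between subsets. It was at 1889, 2587, 2665 and 3017 in CD4 cells of KO animals 1 to 4 and at 3567, 2971, 3664 and 3812 in those of WT animals 2, 3, 5 and 6. CD8 libraries were lower, at 1391, 1372, 1676 and 1704 in KO and 1959, 1564, 1828 and 1939 in WT cells. DP libraries of KO animals 1 to 4 were the lowest, at 1218, 1122, 878 and 1467. The means fell from WT CD4 (3504 ± 369) through KO CD4 (2540 ± 472), WT CD8 (1823 ± 182) and KO CD8 (1536 ± 178) to KO DP (1171 ± 244). Each neighbour in this order overlapped the next, whereas any CD4 group and any KO CD8 or DP group did not overlap.

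Ehmt1 and Ehmt2, the partners of the H3K9 mono- and dimethylase, were called in none of the main fits of the comparisons described below. Ehmt1 had means of 2650.1 ± 352 in KO CD4, 3035 ± 116 in WT CD4, 2712 ± 286 in KO CD8, 2903 ± 58.7 in WT CD8 and 2346 ± 506 in KO DP, and Ehmt2 means between 11830 ± 567 in WT CD8 and 12577 ± 422 in KO CD4. Per kilobase the level of Ehmt2 was 5.50 ± 0.242 times that of Ehmt1 in WT CD4, 5.55 ± 0.231 in WT CD8, 6.53 ± 0.646 in KO CD4, 6.30 ± 0.712 in KO CD8 and 7.08 ± 1.02 in KO DP. The difference between KO and WT in this ratio had exact permutation p values of 0.0571 in CD4 and 0.114 in CD8 cells.

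Setdb1, a trimethylase of H3K9, was at 2356, 2928, 2699 and 2608 in KO CD4 libraries and at 3036, 2937, 3037 and 3140.1 in WT CD4 libraries. CD8 libraries had 2402, 2648, 2771 and 2570.4 in KO and 3139, 3150.2, 3193 and 3054 in WT cells. DP libraries of KO animals 1 to 4 had 2493, 2626, 1730.2 and 2676. Every one of the 12 KO libraries thus lay below every one of the 8 WT libraries. This held for 2.72% of 12411 genes, and for no other member, while 2.82% of genes had every KO library above every WT library. The 12 KO libraries come from 4 animals and the 8 WT libraries from 4, so they are not independent. Suv39h2, the other trimethylase, was at 174, 355, 321 and 192 in KO CD4 and at 402, 369.7, 434 and 362 in WT CD4, at 179, 314, 527 and 299 in KO CD8 and at 495, 562, 510.4 and 472 in WT CD8, and at 241, 379, 689 and 407 in KO DP. All KO CD4 libraries were below all WT CD4 libraries, while KO CD8 and WT CD8 overlapped through KO animal 3. The means were ordered WT CD8 (509.8 ± 38.4), KO DP (429 ± 188), WT CD4 (392 ± 33.0), KO CD8 (329.8 ± 145) and KO CD4 (261 ± 90.9), and neighbours in this order overlapped. The plot of the members in each library shows these values.

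**Figure D1:**
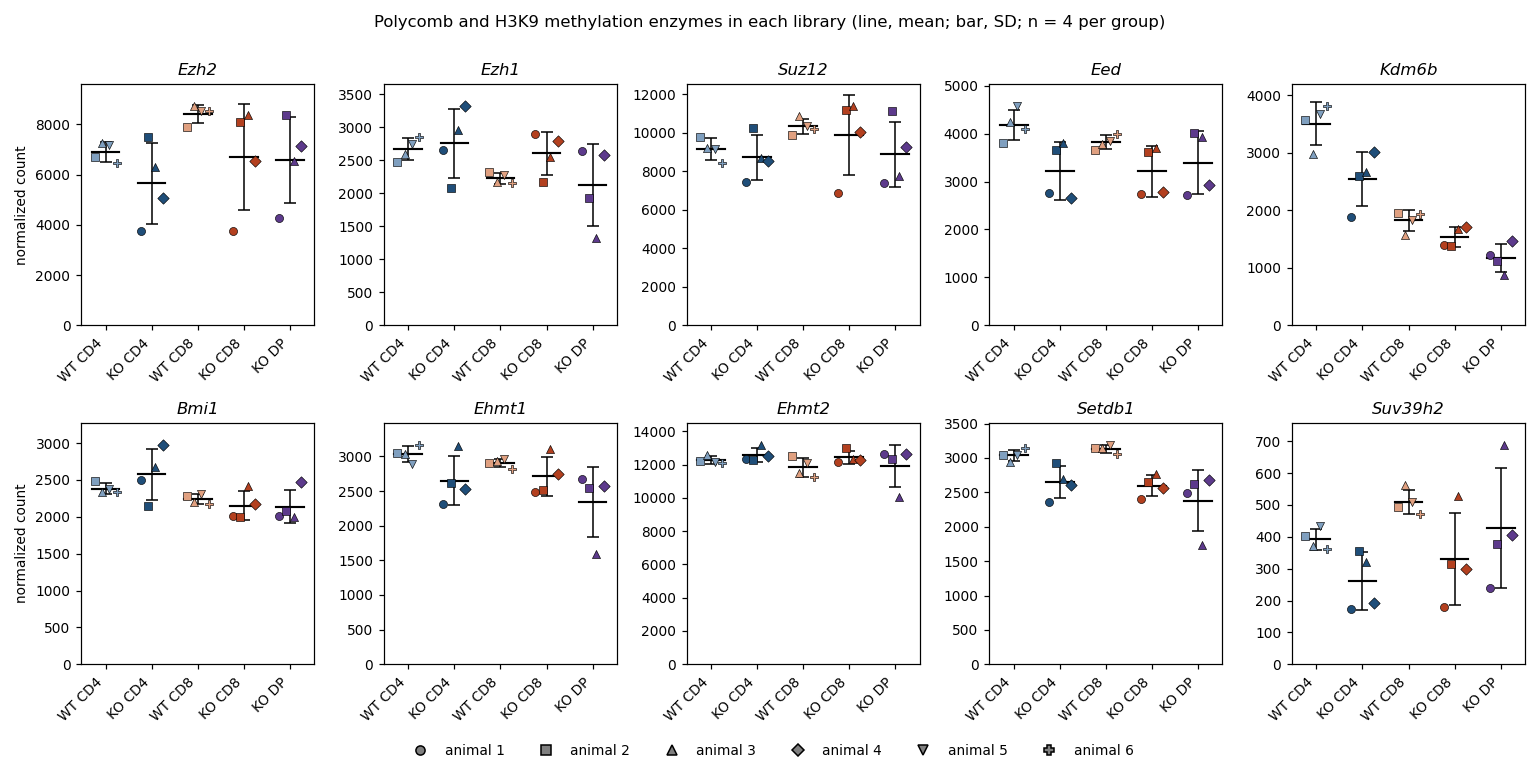
Normalized count of each of the 10 members (vertical axes, each from 0) in the 20 libraries, by group, with the animal given by the symbol, the mean as a line and the SD as a bar (n = 4 libraries per group). WT libraries sit close together, KO libraries are spread more widely, KO animal 1 (circles) is the lowest KO library for Ezh2, Suz12 and Suv39h2 in all 3 subsets, and all KO values of Setdb1, 1730.2 to 2928, lie below the WT values, 2937 to 3193.

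In CD4 cells the loss of Dnmt3a was accompanied by less RNA of Kdm6b, the H3K27 demethylase. Kdm6b had lower means in CD8 and DP cells, and the part of such cells in the KO CD4 sorts was not tested. The gene fell by 0.48 on the log2 scale (SE 0.14, 28.2% lower in KO, limma adjusted p = 0.0395). It was the only member past the threshold of 0.05, 1 of 10 in a comparison in which 18.4% of 12391 genes were called, 8.59% higher and 9.77% lower. The estimates of 7 members were below 0 and those of 3 above it, with a median of -0.20 against -0.05 over all genes. By role, the estimates of the PRC2 subunits were -0.33 for Ezh2 (95% interval -0.73 to 0.06, adjusted p = 0.197), 0.03 for Ezh1 (-0.26 to 0.32), -0.07 for Suz12 (-0.29 to 0.14) and -0.39 for Eed (-0.67 to -0.12, adjusted p = 0.0522). Bmi1 stood at 0.10 (-0.12 to 0.32). Of the H3K9 enzymes, Suv39h2 had -0.65 (-1.18 to -0.12, adjusted p = 0.0810), Setdb1 -0.20 (-0.38 to -0.02, adjusted p = 0.101), Ehmt1 -0.20 (-0.42 to 0.01) and Ehmt2 0.04 (-0.10 to 0.17). KO and WT CD4 libraries did not overlap for 3 of the 10 (Eed, Setdb1 and Suv39h2), near the 25.6% of all genes, and they did overlap for Kdm6b. Kdm6b was not called without KO CD4 replicate 1 or without WT CD4 replicate 2, 5 or 6 (adjusted p up to 0.115), nor in the joint fit of the 20 libraries (0.0519). Without KO CD4 replicate 2 the count rose to 5 members, with Ezh2, Eed, Setdb1 and Suv39h2 added, and without KO CD4 replicate 3 to 3, with Eed and Ehmt1. The calls over all genes, 2274 in the main fit, rose to 2621 and 2963 in these fits. They were 1352 without KO CD4 replicate 1, and 1106, 1025 and 628 without WT CD4 replicate 2, 5 and 6.

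In CD8 cells the only member past the threshold was Setdb1, which fell by 0.27 (SE 0.07, 17.2% lower in KO, limma adjusted p = 0.0179). It was again 1 of 10 members, in a comparison that called 25.2% of 12383 genes, 12.6% higher and 12.5% lower. The estimates of 8 members were below 0, with a median of -0.18 against -0.04 over all genes. Suv39h2 had the lowest of them at -0.73 (-1.35 to -0.11, adjusted p = 0.0824), followed by Ezh2 at -0.40 (-0.88 to 0.09, adjusted p = 0.207), Eed at -0.26 (-0.51 to -0.02, adjusted p = 0.106) and Kdm6b at -0.25 (-0.50 to -0.0020, adjusted p = 0.124). Ezh1 was on the other side at 0.22 (-0.00099 to 0.43, adjusted p = 0.128). Suz12 (-0.09), Ehmt1 (-0.10), Bmi1 (-0.06) and Ehmt2 (0.07) had intervals that included 0. Only for Setdb1 did KO and WT CD8 libraries not overlap, 1 of 10 against 30.6% of all genes. Setdb1 was not called without WT CD8 replicate 2, 3 or 5 (adjusted p up to 0.0614) or in the joint fit (0.0984). The count rose to 2 without KO CD8 replicate 2, with Ezh1, and to 3 without KO CD8 replicate 3, with Eed and Suv39h2. Over all genes 2819 and 4092 were called in these fits, against 3118 in the main fit. Without WT CD8 replicate 2, 3 or 5 the calls over all genes were 1753, 1712 and 1711.

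The difference between the effects in the 2 subsets was tested as a genotype by subset interaction over 16 libraries. No member passed (0 of 10, lowest adjusted p = 0.996 in limma, none with an unadjusted p under 0.05, and 0 in edgeR and DESeq2), where 0.0161% of all genes did. With the animal as a block 0 members passed as well, where 173 of 12446 genes did. Without the block, the interval of the interaction ran from -0.62 to 0.16 for Kdm6b and from -0.13 to 0.27 for Setdb1. The call of Kdm6b in CD4 cells and of Setdb1 in CD8 cells is therefore not shown to be a difference between the subsets.

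**Figure D2:**
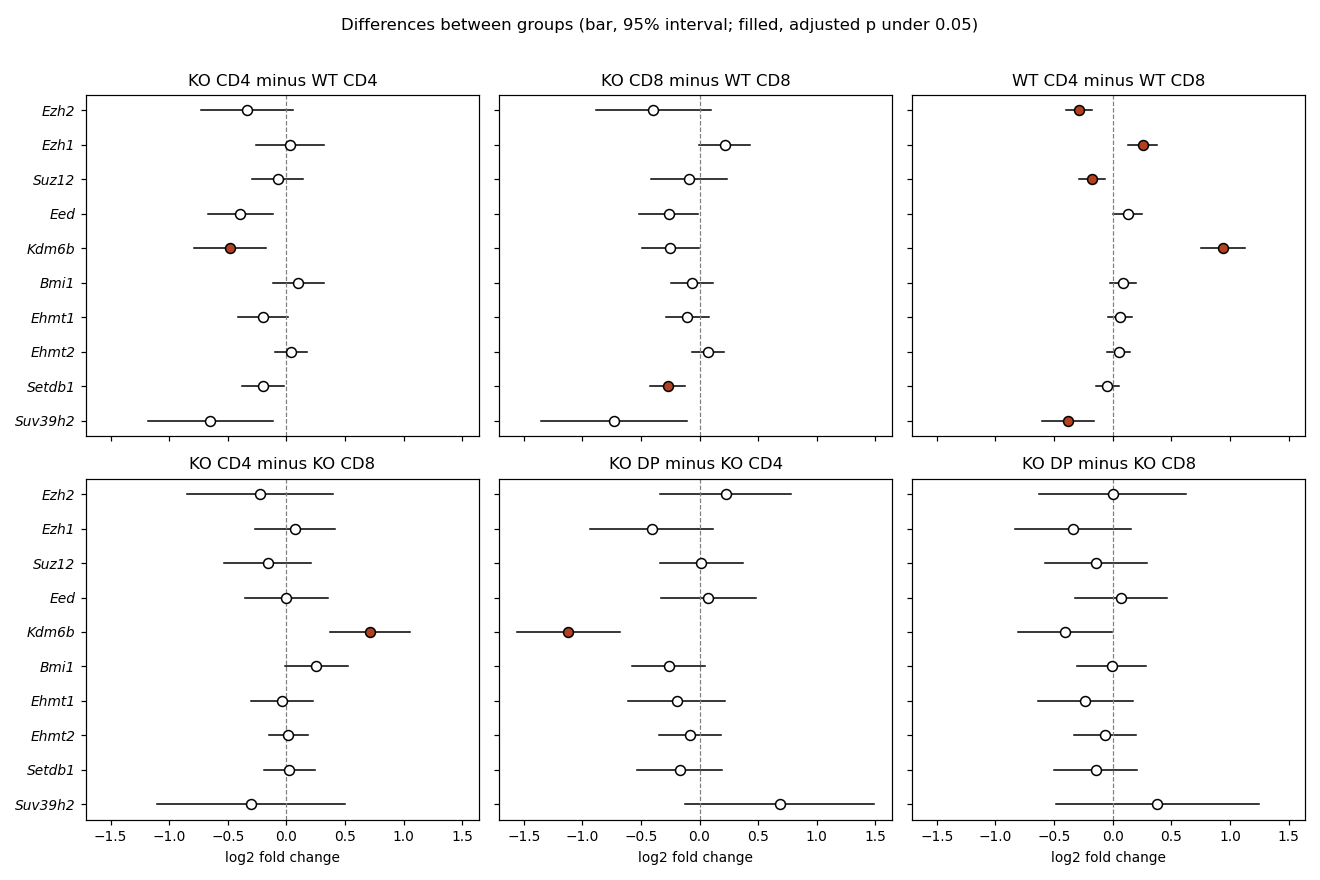
Log2 fold change of each member (horizontal axes) in 6 comparisons, with the 95% interval as a bar and filled points for an adjusted p under 0.05 (limma, n = 4 libraries per group). Kdm6b is filled in 4 of the panels, Setdb1 only in KO CD8 minus WT CD8, and 5 members are filled in WT CD4 minus WT CD8, where the intervals are the narrowest.

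Between the WT subsets, Ezh2, Suz12 and Suv39h2 were lower in CD4 than in CD8 cells, and Ezh1 and the H3K27 demethylase gene Kdm6b were higher. Here 5 of the 10 members passed, against 44.5% of 12559 genes. Ezh2 was 18.0% lower in WT CD4 (log2 -0.29, SE 0.05, adjusted p = 0.000500), Suz12 11.6% lower (-0.18, SE 0.05, adjusted p = 0.0125) and Suv39h2 23.1% lower (-0.38, SE 0.10, adjusted p = 0.00818). Ezh1 was 19.5% higher (0.26, SE 0.06, adjusted p = 0.00271), so the 2 catalytic subunits went opposite ways. Kdm6b was 1.92 times as high in WT CD4 cells (0.94, SE 0.09, adjusted p = 1.5e-06). Eed (0.13, adjusted p = 0.0929), Ehmt1, Ehmt2, Setdb1 and Bmi1 did not pass, and their intervals lay between -0.14 and 0.25. For 6 members, the 5 called and Bmi1, the groups did not overlap, against 41.8% of all genes. In the joint fit of all 20 libraries only Kdm6b was called (adjusted p = 0.000298), and the other 4 had adjusted p between 0.404 and 0.513; that fit uses 1 estimate of spread for WT and KO groups. With the animal as a block Eed was called too (adjusted p = 0.0464), in a fit that called 6134 of 12559 genes. The summed count of 24 proliferation genes moved with these results, at 185665 to 231388 in WT CD4 against 280674 to 296409 in WT CD8, with 23 of the 24 called lower in WT CD4, and its part in them was not tested.

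Within the KO animals the same split by subset was seen for Kdm6b. It was 1.64 times as high in KO CD4 as in KO CD8 cells (log2 0.71, SE 0.15, adjusted p = 0.0321), the only member of 10 called where 4.22% of 12189 genes were, and the only one without overlap (10.1% of genes). That fit leaves out the pairing of subsets by animal. With the animal as a block Kdm6b was again the only member called, where 2305 of 12189 genes were. DP cells had less Kdm6b than KO CD4 cells, at a fall by 1.12 (SE 0.20, adjusted p = 0.0228), again 1 of 10 against 1.95% of 12175 genes. Here too Kdm6b alone was called with the animal as a block, where 860 genes were. These comparisons share the KO CD4 libraries. Between DP and KO CD8 cells no member passed (0 of 10 against 0.00823% of 12153 genes, limma, with 0 also in edgeR and DESeq2), and 1 of them, Kdm6b, had an unadjusted p under 0.05. Its difference there was -0.41 (95% interval -0.81 to -0.0063, adjusted p = 0.871). Ezh2 differed between DP and KO CD8 cells by -0.00084, with an interval of -0.63 to 0.62. The DP library of KO animal 3, which had the fewest genes with reads, was the lowest DP library for 6 members (Ezh1, Kdm6b, Bmi1, Ehmt1, Ehmt2 and Setdb1) and the highest for Suv39h2. The call of Kdm6b between KO CD4 and KO CD8 was lost without KO CD4 replicate 2, 3 or 4, KO CD8 replicate 1, 2 or 4, or KO animal 3 (adjusted p up to 0.140), and that between DP and KO CD4 without KO CD4 replicate 2, 3 or 4, KO DP replicate 2, or KO animal 3 (up to 0.0877). Its estimate kept its sign in all of these fits.

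As single values, the 10 members were also compared over all 10 pairs of the 5 groups by 2-sided exact permutation tests. Of these 100 tests 24 reached the smallest p that 4 against 4 libraries allow, 0.0286, and none passed after adjustment over the 100 (smallest adjusted p = 0.119). That adjustment can fall under 0.05 only if most of the tests reach 0.0286, so it cannot decide for single members. The groups in these 24 tests did not overlap. Over all genes that share was 25.6% for KO and WT CD4 (3 of 10 members) and 30.6% for KO and WT CD8 (1 of 10). It was 41.8% for the WT subsets (6 of 10) and 10.1% for KO CD4 and KO CD8 (1 of 10). For the other pairs of groups the share over all genes was not computed, so the count of 24 as a whole cannot be judged against it.

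The members differed among animals in a patterned way. The SD on the log2 scale was larger in KO than in WT cells for all 10 members in CD4 cells and for 9 of 10 in CD8 cells, the exception being Ehmt2. For Ezh2 it was 0.43 in KO CD4 against 0.08 in WT CD4 and 0.53 in KO CD8 against 0.06 in WT CD8, 5.24 and 8.60 times as large. Over 6569 genes with a mean count of at least 1000 the median SD was 0.17 against 0.09 in CD4 and 0.18 against 0.07 in CD8 cells, or 1.89 and 2.67 times as large. The spread of Suv39h2 was similar to that of Ezh2, with SDs of 0.52 in KO CD4 and 0.64 in KO CD8 against 0.12 and 0.11 in WT. In KO animal 1, Ezh2 lay 0.55, 0.76 and 0.58 below its group mean on the log2 scale in CD4, CD8 and DP cells, and Suv39h2 0.51, 0.78 and 0.73 below. For these genes the subsets of animal 1 deviated together. In KO animal 3 they did not for Ehmt1, Kdm6b and Setdb1, which lay 0.26, 0.09 and 0.03 above the group mean in CD4 and 0.20, 0.13 and 0.10 above it in CD8 cells, whereas their DP deviations were -0.53, -0.39 and -0.44.

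Ezh2 and the proliferation genes rose and fell together over the libraries. Animal 1 had the lowest proliferation sum of each KO subset (119297 in CD4, 127770 in CD8 and 146220 in DP cells) and animal 2 the highest (277680, 331185 and 355654). After group means were removed, the correlation of a member's log2 level with that of the list over the 20 libraries was 0.97 for Ezh2, 0.89 for Suz12, 0.83 for Eed, 0.80 for Suv39h2 and -0.58 for Ezh1, as Pearson's r. It was 0.28 for Setdb1 and between -0.08 and 0.10 for Kdm6b, Bmi1, Ehmt1 and Ehmt2. These are descriptions, since the libraries share animals and a size factor each. No gene of the list was called between KO and WT cells in either subset by limma, edgeR or DESeq2 (0 of 24 in each), and at an unadjusted p under 0.05 there was 1 in CD8 cells by DESeq2 and 0 otherwise. The estimates of 22 of the 24 were below 0 in each subset, with medians of -0.28 in CD4 and -0.31 in CD8 cells against -0.05 and -0.04 over all genes. Among the members themselves, the closest pairs within groups were Ezh2 with Suz12 (r = 0.92), Ehmt1 with Setdb1 (0.87) and Ezh2 with Suv39h2 (0.79).

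**Figure D3:**
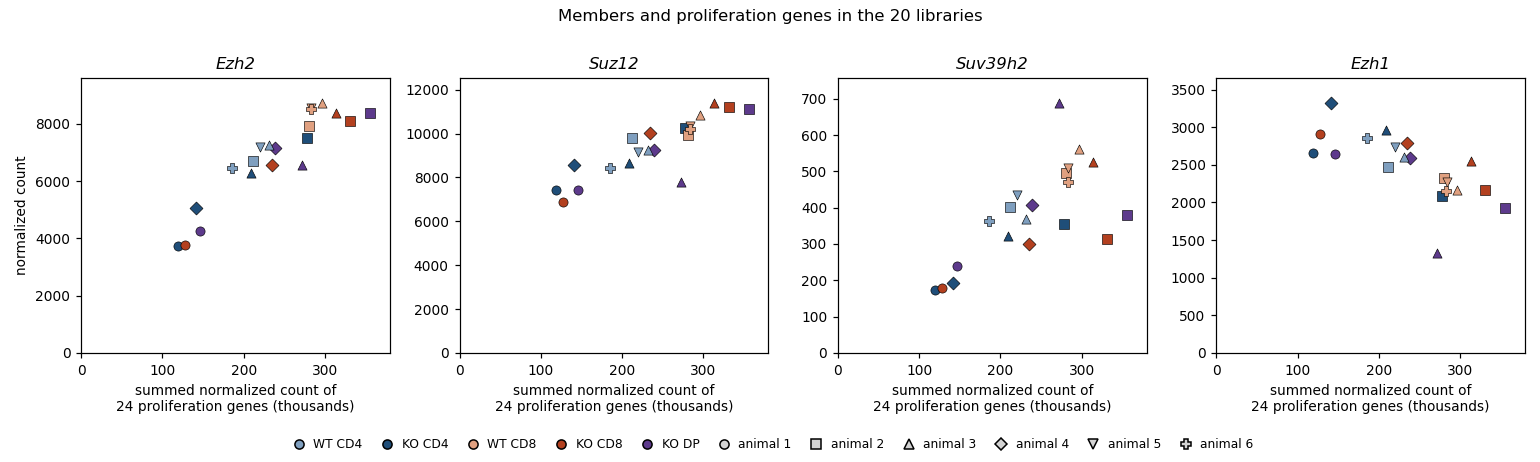
Normalized count of Ezh2, Suz12, Suv39h2 and Ezh1 (vertical axes, from 0) against the summed normalized count of 24 proliferation genes divided by 1000 (horizontal axes) in the 20 libraries, with groups by colour and animals by symbol. Ezh2 rises along the axis from the 3 libraries of KO animal 1 to the WT CD8 and KO animal 2 libraries, Ezh1 falls, and the DP library of KO animal 3 stands off the line for Suv39h2 and Ezh1.

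The genes most like each member over the 20 libraries were sought among 10709 genes with a mean count above 50. For Ezh2 they were Kif11 (r = 0.99), a spindle motor, Cdca2 and Spdl1 (0.99 each). Suz12 was most like Ckap5, Ipo5 and Rad50 (0.94 each), and Suv39h2 was most like Hdhd2 (0.95), Cbx1 (0.94), which encodes the H3K9 methyl reader HP1 beta, and Creld2 (0.94). Setdb1 ran with Tubgcp6, Gon4l and Cherp (0.95 each), Ehmt1 with Gcn1l1 (0.95), Ylpm1 and Camsap1 (0.93 each) and Kdm6b with Chd3, Usp33 (0.96 each) and Cdk5r1 (0.95). Eed was most like Zdhhc2 (0.94), Psmd11 (0.92) and Kcnk6 (0.91) and Ezh1 like Dennd1a, Ago1 and Sos2 (0.93 each). The likeness was weaker for Ehmt2 (C2cd5, 0.88, Prpf8, 0.87, and Arnt, 0.84) and Bmi1 (Trappc9, 0.85, Abhd4 and Zmym4, 0.84 each).

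The partners of these enzymes were followed as lists. Lists of 59 other genes of PRC2, PRC1, H2A deubiquitination and H3K9 methylation, reading and demethylation were followed, of which 52 were in the table and all 52 were tested. In CD4 cells 8 of them fell in KO and 1 rose, so that 9 of 52 were called where 18.4% of all genes were, with a median log2 fold change of -0.11 against -0.05 over all genes. In CD8 cells 6 fell and 1 rose, 7 of 52 where 25.2% of all genes were called, with a median of -0.09 against -0.04. By list, PRC2 accessory genes gave 3 falls of 6 in CD4 and 1 of 6 in CD8 cells, and PRC1 genes, Bmi1 included, 2 falls and 1 rise of 21 in CD4 and 4 falls and 1 rise of 21 in CD8 cells. Of 12 H3K9 partners and readers 2 fell in CD4 and 1 in CD8 cells, of 3 H2A deubiquitinase genes 1 fell in CD4 and 0 in CD8 cells, and of 9 H3K9 demethylases 0 passed in either subset.

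Phf1, a PRC2 accessory subunit that binds the H3K36 mark, was the pathway gene with the largest fall in CD8 cells without overlap, by 1.02 (SE 0.19, adjusted p = 0.00614), from 2265 to 2598 normalized counts in WT to 933 to 1820.3 in KO libraries. In CD4 cells it fell by 0.82 (SE 0.18, adjusted p = 0.0158). Its relative Mtf2 fell by 0.62 in CD4 cells (adjusted p = 0.0225) and stood at -0.38 in CD8 cells (adjusted p = 0.0551). Aebp2, a PRC2 cofactor, fell by 0.30 in CD4 cells (adjusted p = 0.0216). Phc2, a subunit of canonical PRC1, was the only pathway gene that rose, by 0.43 (SE 0.10, adjusted p = 0.0175) among CD4 and by 0.52 (SE 0.11, adjusted p = 0.00916) among CD8 libraries, and every KO library was above every WT library in each subset.

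Mphosph8 and Fam208a encode subunits of the HUSH complex, which brings SETDB1 to its targets. Mphosph8 fell by 0.44 in each subset (adjusted p = 0.0426 in CD4 and 0.0239 in CD8), and Fam208a fell by 0.70 in CD4 cells (SE 0.14, adjusted p = 0.0112) and stood at -0.25 in CD8 cells (adjusted p = 0.211). No other of the 12 H3K9 partners and readers, Pphln1 of the same complex included, was called in either subset. Of the PRC1 genes, Pcgf2, Cbx8 and Pcgf6 fell by 0.58, 0.57 and 0.48 in CD8 cells (adjusted p = 0.00621, 0.0368 and 0.00884), and Scmh1 fell by 0.89 in CD4 cells from a low level (adjusted p = 0.0392). Asxl2, a partner of the H2A deubiquitinase, fell by 0.45 in CD4 cells (adjusted p = 0.0134). Kdm2b was called in CD4 cells as well, with overlap between the groups. The number called in CD4 cells, 9, was lower when any 1 of the WT libraries was left out. It was 4 without WT CD4 replicate 2, 3 without replicate 3, 3 without replicate 5 and 1 without replicate 6. Over all genes these fits called 1106, 976, 1025 and 628, against 2274 in the main fit. In CD8 cells, where 7 pathway genes were called, the number was 4 without WT CD8 replicate 3, 5 or 6 and 13 without KO CD8 replicate 3. The calls over all genes were then 1712, 1711, 1633 and 4092, against 3118 in the main fit.

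**Figure D4:**
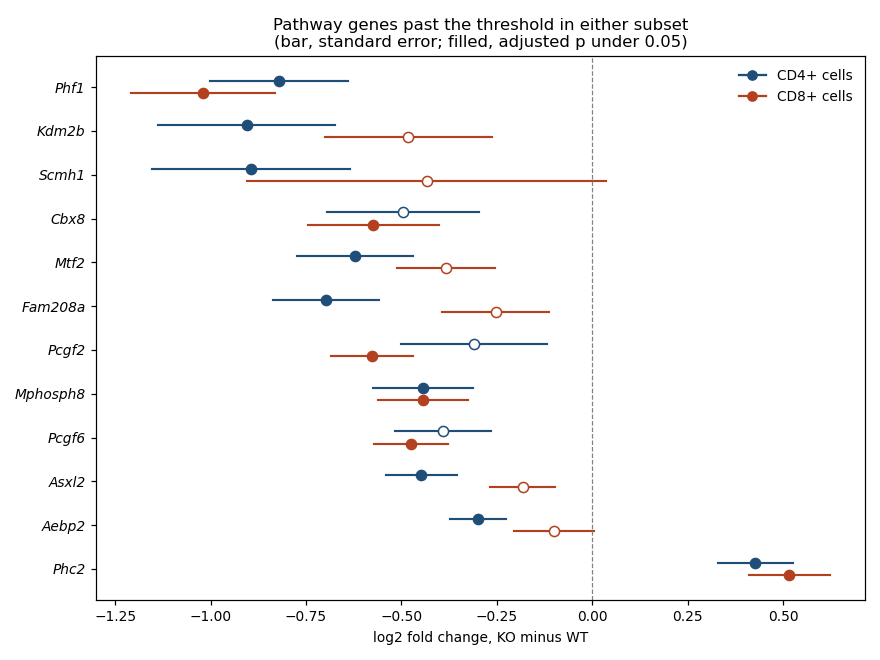
Log2 fold change between KO and WT cells (horizontal axis, bar, standard error) of 12 of the 13 other pathway genes past the threshold in at least 1 subset, in CD4 and CD8 cells (n = 4 libraries per group). Points are filled where the adjusted p was under 0.05, and all lie below 0 except those of Phc2.

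Other histone methyltransferases, which act on H3K4, H3K36, H3K79 and H4K20 and are no members of these pathways, were counted for comparison. Over all genes, 9.77% fell in CD4 and 12.5% in CD8 cells. Of 19 tested, 8 fell and 0 rose in CD4 cells (0 rose at an unadjusted p under 0.05 also, by limma, edgeR and DESeq2), and 7 fell and 2 rose in CD8 cells. Further groups moved in the same libraries: 12 of 18 immediate early genes fell in each subset, as did 4 (CD4) and 6 (CD8) of 8 nuclear-retained RNAs and 3 of 10 heat shock genes. The summed count of the nuclear-retained RNAs lay between 40988 and 45444 in KO CD4 libraries, below the 64129 to 102712 of WT CD4, and between 40721 and 65206 in KO CD8, below the 70676 to 80651 of WT CD8, and their part in the falls was not tested.

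Genes known as targets of Polycomb silencing were followed at the RNA level. Of 56 listed genes, among them the Hox clusters, 37 were in the table, and 16 to 19 of these stayed at counts of at most 3 throughout a given group, which at this depth means that they were not detectable. No target rose past the threshold in either subset (0 of 12 tested in CD4 and 0 of 13 in CD8 by limma, edgeR and DESeq2), where 8.59% and 12.6% of all genes were called higher, so that 0 is near the share over all genes for lists of this size. At an unadjusted p under 0.05, 1 rose in each subset by DESeq2 and 0 by the other tools. Those that fell, named here after their values were seen, were the T cell factors Gata3 (by 0.28, adjusted p = 0.0354) and Zbtb16 (by 1.75, adjusted p = 0.0374, at a mean count of 14.9) in CD4 cells and Eomes (by 1.19, adjusted p = 0.00248) in CD8 cells.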

How the data were processed

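The table holds 20 libraries of sorted splenic donor T cells, with genotype, subset and replicate number taken from the labels. Strand-specific poly(A) libraries were aligned by the authors to mm10 with STAR, read pairs over the exons of a gene were counted by strand, and DESeq2 size factors were applied. The deposited values are thus signal, normalized counts, and 100% of them returned whole reads when the factor of each library was undone (tolerance 0.001). The STAR version was 2.7.2b per the submitters' processing notes.

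Groups were compared in R 4.3.3 with linear models in limma 3.58.1 (variances moderated along a trend with expression) fitted to log2(normalized count + 1), over all genes with a mean of at least 10 in the libraries compared, with 2-sided p values adjusted by the Benjamini-Hochberg procedure over all genes tested and a threshold of 0.05. Low genes are understated on this scale. Single members were compared by exact permutation tests. Alternatives were a pseudocount of 10, no filter, quantile normalization, a common 75th percentile, edgeR 4.0.16 and DESeq2 1.42.0 on whole reads, a joint fit, a replicate block, and leaving out each library. Leaving out all libraries of KO animal 1 or 3 was added after seeing the data. The members and lists were chosen with earlier results of these data known. Beyond the members, genes were named where a pathway gene passed the threshold without overlap between KO and WT, up to 10 per comparison, or was among the 3 most correlated with a member. Pphln1, which did not pass, was named beside the other HUSH genes.

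Precision rests on 4 animals per group more than on depth. Nothing in the labels says more of the replicates than a number. Libraries of equal number within a genotype were taken to come from the same animal, which the labels do not state. Their deviations from the group means correlated at r = 0.271 to 0.538 within KO and 0.120 to 0.196 within WT. No pair of libraries of a group was a duplicate. The fits were tested on simulated data. Gene positions, exon lengths and upstream sequences are from RefSeq for GRCm38.p6, which held upstream windows for 9 of the 10 members. Methylation data, WT DP cells, Rbbp7, Suv39h1 and Kdm6a were not analysed here, and 1 further pathway gene that passed the threshold is counted but not reported here.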

Additional observations from a re-analysis of the deposited data

Results flagged for a closer look

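In 2 of the 50 sets of 4 libraries (10 members in 5 groups), 1 library stood apart from the other 3 by Dixon's criterion at the 95% level, which chance alone meets in about 1 of 20 sets. Ehmt1 was at 1591 normalized counts in the DP library of KO animal 3, the lowest of its group (ratio of gap to range 0.881), and Ehmt2 was at 10055 in the same library (0.881). That library had 11783 genes with reads, against at least 13203 in each of the others. Without it, the estimate between DP and KO CD8 cells moved from -0.23 to -0.06 for Ehmt1 and from -0.07 to 0.01 for Ehmt2, and neither was called with or without it.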

How the results depend on the processing

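The number of members past the threshold depended on the processing as follows. Between KO and WT CD4 cells, where 1 was called, it was 2 with a pseudocount of 10, with quantile normalization, with a common 75th percentile and in DESeq2, with Eed added each time, and 0 in the joint fit of 20 libraries. Between KO and WT CD8 cells, where 1 was called, it was 0 in the joint fit, and between WT CD4 and WT CD8 cells, where 5 were called, it was 1 there. Over all genes the joint fit called 1304, 2017 and 1610 in these 3 comparisons, against 2274, 3118 and 5592 in the main fits. With each library, or KO animal 1 or 3, left out, the number of members ranged from 0 to 5 for KO and WT CD4 and from 0 to 3 for KO and WT CD8. It ranged from 0 to 1 for KO CD4 and KO CD8 and from 0 to 1 for DP and KO CD4. Calls over all genes in the same fits ran from 628 to 2963, 1633 to 4092, 122 to 486 and 84 to 279, in that order. The main fits had 2274, 3118, 514 and 237. The count of other pathway genes then spanned 1 to 13 for CD4, where 9 were called, and 4 to 13 for CD8, where 7 were. Fits with fewer libraries have less power, and the cause of these changes was not tested further.

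KO and WT animals share only the numbers 2 and 3, which are taken to name different animals. With the number as a replicate block the members called fell to 0 in CD4 and 0 in CD8 cells and the pathway genes to 0 and 1. Over all genes the block left 26 of 12391 called in CD4 and 89 of 12383 in CD8 cells. The main fit had called 2274 and 3118 of them. With the block, Kdm6b in CD4 cells was at -0.31 (adjusted p = 0.369) and Setdb1 in CD8 cells at -0.22 (0.338). Equal numbers correlated at r = 0.0696 to 0.0846 in CD4 and -0.0024 to 0.0990 in CD8 cells. Within a genotype the block changed no call of a member but that of Eed between the WT subsets.

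No called value changed its sign. Of the estimates that were not called, these crossed 0. Under the replicate block, Ezh1 (-0.028) and Bmi1 (-0.0084) between KO and WT CD4 and Suz12 (0.12) between KO and WT CD8. Under quantile normalization, which moved the median of all genes by less than 0.1, Ehmt2 between KO and WT (-0.049 in CD4, -0.0056 in CD8), Eed between KO CD4 and KO CD8 (0.0027), and Ezh2 (0.0085) and Bmi1 (0.0080) between DP and KO CD8, the latter pair also with the 75th percentile (0.012 and 0.0035). In DESeq2, the interaction of Suz12 (-0.0045).

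With a library or animal left out, the estimates that crossed 0 ran from -0.067 to 0.16 for Ezh1 between KO and WT CD4 and from -0.17 to 0.073 for Suz12 between KO and WT CD8. Between KO CD4 and KO CD8 they ran from -0.086 to 0.086 for Eed, -0.12 to 0.031 for Ehmt1, -0.011 to 0.039 for Ehmt2, -0.026 to 0.20 for Ezh1 and -0.025 to 0.080 for Setdb1. Between DP and KO CD4 the ranges were -0.013 to 0.17 for Eed, -0.33 to 0.065 for Ehmt1, -0.12 to 0.019 for Ehmt2 and -0.098 to 0.098 for Suz12. Between DP and KO CD8 they were -0.081 to 0.081 for Bmi1, -0.013 to 0.17 for Eed, -0.35 to 0.011 for Ehmt1, -0.11 to 0.013 for Ehmt2, -0.26 to 0.19 for Ezh2 and -0.21 to 0.033 for Setdb1. The interaction ran from -0.19 to 0.24 for Ezh2, -0.18 to 0.34 for Suv39h2 and -0.15 to 0.095 for Suz12.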

Other observations

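The level per kilobase of Ezh2, which places the H3K27 mark, over that of Kdm6b, which removes it, differed between the WT subsets. The ratio was 6.27 ± 1.01 (SD, n = 4) in WT CD4, 7.01 ± 1.66 in KO CD4, 14.7 ± 2.08 in WT CD8, 13.7 ± 4.36 in KO CD8 and 18.3 ± 6.19 in KO DP cells. It was lower in WT CD4 than in WT CD8 cells and lower in KO CD4 than in DP cells, each without overlap (2-sided exact permutation p = 0.0286, the smallest that 4 against 4 libraries can give). Of the H3K9 trimethylases, Suv39h2 had 0.141 ± 0.0126 of the level of Setdb1 per kilobase in WT CD4 and 0.177 ± 0.0118 in WT CD8 cells, again without overlap (p = 0.0286 in the same exact test). The KO CD4 and KO CD8 groups overlapped in both ratios. Over the 24 exact tests made on 4 such ratios, the 4 at the smallest p had an adjusted p of 0.171, so none passed after adjustment. Such an adjustment can fall under 0.05 only if most of the tests reach that smallest p, so it cannot decide for single ratios. These ratios were chosen with the values of the members known.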
